A study of Mus musculus with 6 samples.

Results

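The 46 genes examined here encode glucose transporters and the enzymes of glycolysis, the pentose phosphate pathway, the entry of pyruvate into mitochondria and the tricarboxylic acid (TCA) cycle. They were taken by gene symbol from a list of these pathways, and all 46 were found among the 25631 genes of the deposited table. Of these, 18 belong to glucose uptake and glycolysis, 9 to the pentose phosphate pathway, 9 to pyruvate entry and 10 to the TCA cycle. The RNA came from oocytes punctured out of large antral follicles of 14-month-old female ICR mice that had been injected with equine chorionic gonadotropin. Control mice (labelled Aged and untreated, n = 3 libraries) drank water alone, and mice of the aminophylline group (n = 3 libraries) drank 4 mM aminophylline, a theophylline derivative that inhibits phosphodiesterases nonspecifically, for 1 week and were studied 3 weeks later. All mice of both groups were thus old, and no young oocytes were compared. How many mice and oocytes went into a library is not stated, so the p-values measure only the spread between these libraries.

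Glycolysis splits glucose into pyruvate, while the pentose phosphate pathway diverts glucose phosphate to make NADPH, which keeps glutathione reduced, and ribose phosphate for nucleotides. Pyruvate enters mitochondria through the mitochondrial pyruvate carrier and is turned into acetyl-CoA by the pyruvate dehydrogenase complex, which pyruvate dehydrogenase kinases switch off. The mouse oocyte is known for its poor use of glucose, and lives on pyruvate supplied by the cumulus cells around it. Measurements here are of RNA, not of enzyme amounts or fluxes.

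Levels are given in FPKM (fragments divided by transcript length and library size), and differences as log2 fold changes of FPKM + 1, aminophylline minus control, which understate the change of genes with low FPKM. The libraries held 14112341 to 33641283 reads, with the lowest total in control library 2. Summed FPKM of 14 oocyte markers lay between 9614 and 15873 in controls and between 12846 and 15035 in the aminophylline group, with *Zp3*, *Gdf9* and *Ooep* leading. Among the 14, *Figla*, *Npm2* and *Zar1* were higher in the aminophylline group at an unadjusted limma p under 0.05, by 0.50, 0.47 and 0.77. Their adjusted p were 0.682, 0.664 and 0.651, and 4.41% of all tested genes were higher at that unadjusted threshold. *Zp1*, *Zp2* and *Nlrp5* differed by -0.26, -0.32 and -0.10, and the other tested oocyte markers by 0.05 to 0.27, none past the unadjusted threshold. Control library 1 stood apart. Its 13 macrophage markers summed to 262 FPKM against 83.7 to 104 FPKM in the other 5 libraries, and 10 of the 13 were highest there. *Lyz2* had 66.4 FPKM there and at most 0.573 FPKM elsewhere. Most of the sum in the other 5 libraries was *C1qb*, with 79.2 to 99.8 FPKM, which was lowest in control library 1 (72.3 FPKM). The 14 granulosa and cumulus cell markers summed to 215 to 278 FPKM in controls and 163 to 178 FPKM in the aminophylline group. *Serpine2* made up most of that sum and differed by -0.58 (unadjusted limma p of 0.00308, adjusted p of 0.651). The other tested markers of this list went both ways. *Cyp19a1* differed by -0.28, *Inha* by 0.21 and *Nr5a2* by 0.35, none at an unadjusted p under 0.05. *Amh* was at 0 in every control library, and 10 of the 14 stayed under 1 FPKM in all libraries. The 4 erythrocyte markers summed to at most 0.585 FPKM and the 9 stroma and theca markers to at most 5.24 FPKM. The part of these other cells in the results below was not tested, but each member that passed a threshold is also given without control library 1. In such bulk libraries, fewer cells of a type and less RNA per cell cannot be told apart.

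Of the 46 members, 37 reached 1 FPKM in at least 3 libraries and were tested with limma. Compared with control, 5 members were higher in the aminophylline group at an unadjusted p under 0.05: the glycolytic genes *Tpi1* and *Pkm* and the pentose phosphate genes *Pgd*, *Rpia* and *Taldo1*. Another 4 were lower: *Prps1*, which draws on ribose phosphate, *Dlat* and *Pdk3* of the pyruvate dehydrogenase step, and *Idh1*. These are 13.5% and 10.8% of the tested members, where 4.41% of all 10340 tested genes were higher and 2.84% lower (456 and 294 genes). No member passed an adjusted p of 0.05, the lowest limma adjusted p being 0.651 for *Prps1*, and the share of all genes that passed was 0% with limma on FPKM and with limma's voom on the recovered reads. With the replicate numbers as a block, 1022 genes were higher and 445 lower, 47 genes passed the adjusted threshold, and no member was among them. An exact permutation test of 3 against 3 libraries cannot give a p below 0.1. The median change was 0.13 over the 37 members and 0.10 over all tested genes, and 20 of the 37 lay above the latter.

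The balance of directions moved with the scaling. Over all genes, rescaling to a common sum gave 282 higher and 292 lower, quantile normalization 347 and 528, median centring 281 and 502, voom on recovered reads 291 and 544, and a correction for GC content and length 287 and 536. Over the members the same settings gave 4 higher and 2 lower, 5 and 5, 4 and 5, 4 and 5, and 3 and 6. The counts also rested on single libraries. Without control library 1 the members counted 0 higher and 1 lower, the latter being *Prps1*. Over all genes, 208 were then higher and 152 lower. Leaving out aminophylline library 2 left 1 member higher and 1 lower (191 and 125 of all genes), leaving out aminophylline library 3 left 1 and 2 (237 and 175), and leaving out aminophylline library 1 left 4 and 1 (532 and 165). Without control library 2 the member counts were 5 and 7 (849 and 744 of all genes), and without control library 3 they were 7 and 1 (1171 and 250). The counts over all genes thus moved with the left-out library as well.

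**Figure D1:**
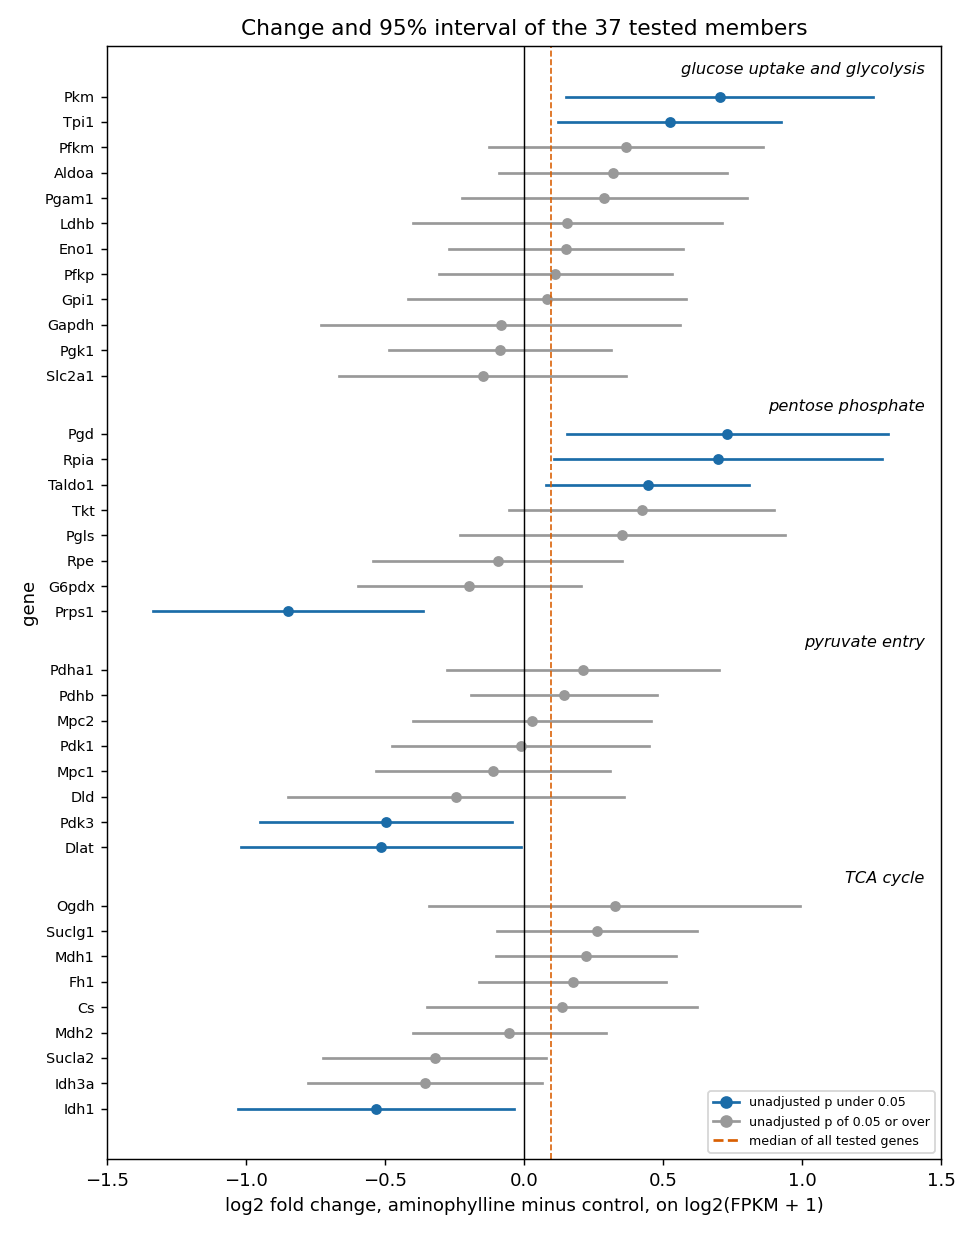
Log2 fold change (aminophylline minus control, on log2(FPKM + 1), x axis) of the 37 tested members, ordered within the 4 steps, with 95% intervals from limma and blue marking an unadjusted p under 0.05. Blue points lie to the right for 5 glycolytic and pentose phosphate genes and to the left for *Prps1*, *Pdk3*, *Dlat* and *Idh1*, and the dashed line is the median of all tested genes at 0.10.

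**Figure D2:**
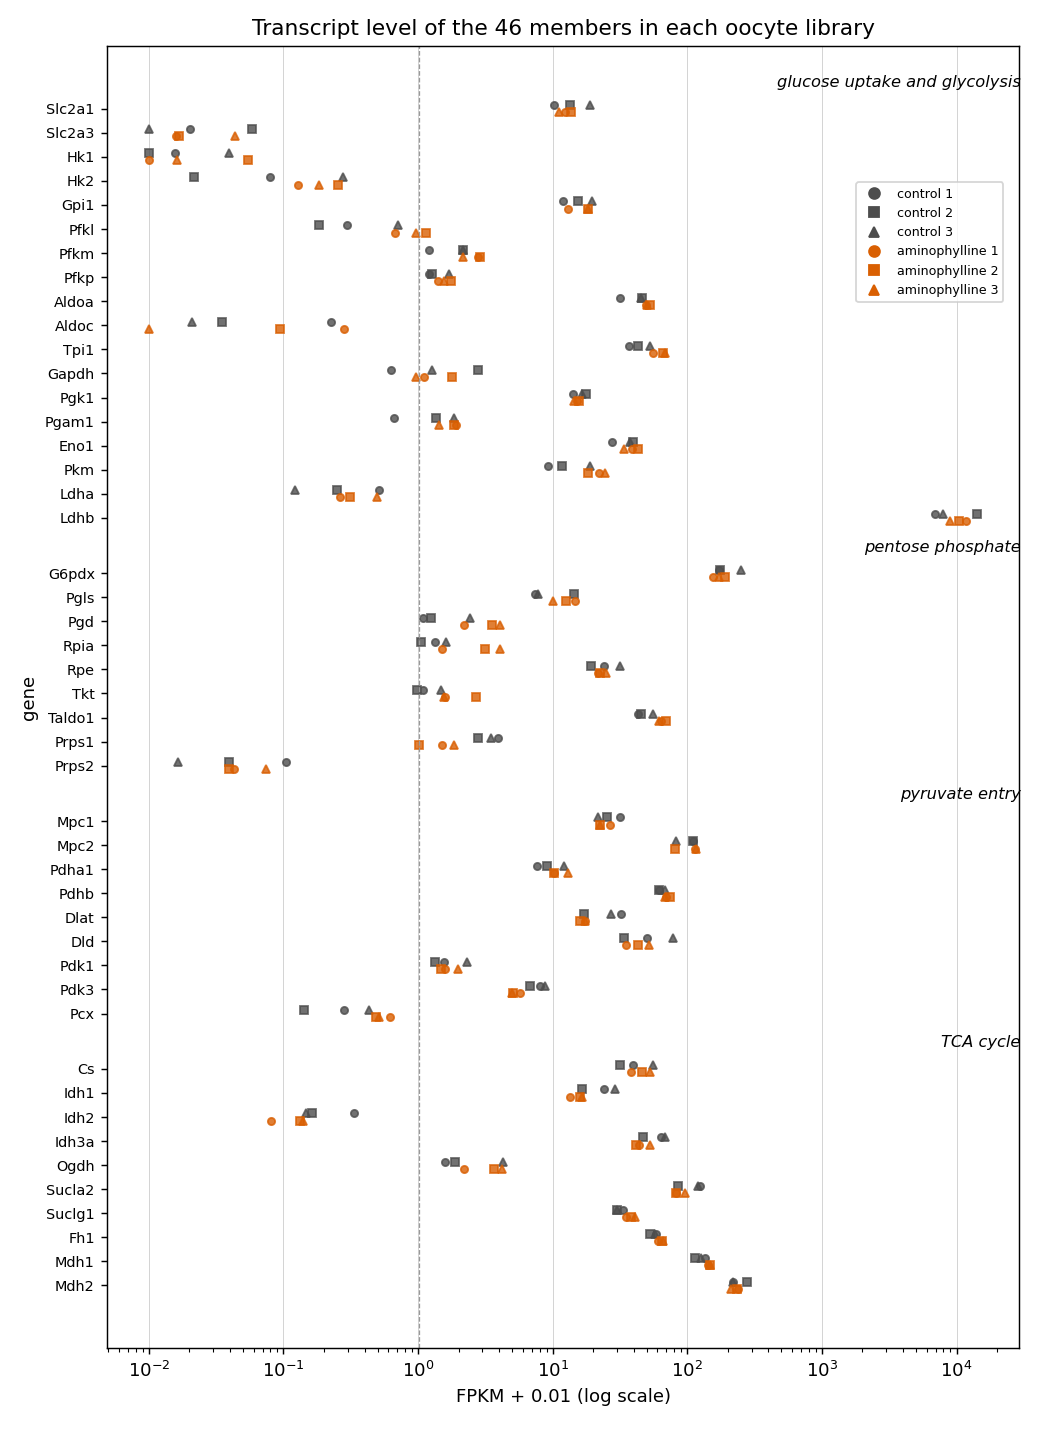
FPKM + 0.01 (log scale) of the 46 members in each of the 6 libraries, control in grey and aminophylline in orange, by step. *Ldhb* sits between 6976 and 14272 FPKM, far to the right of *Ldha*, and the 9 untested members lie around or left of the dashed line at 1 FPKM.

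At the start of glycolysis, the main glucose transporter and the isomerase were expressed and the hexokinases were sparse. *Slc2a1*, a facilitative glucose transporter, had 10.2, 13.3 and 18.9 FPKM in control libraries 1 to 3 and 12.2, 13.7 and 11.1 FPKM in aminophylline libraries 1 to 3. The groups overlapped and the change was -0.15 ± 0.24 (SE). The neuronal-type transporter *Slc2a3* stayed at or under 0.0483 FPKM. Hexokinase, which traps glucose inside the cell, was close to the limit of detection. *Hk1* had 1, 0 and 5 reads in the controls and 0, 6 and 1 reads in the aminophylline group, and a count of 0 allows up to 3 reads. *Hk2* had at most 0.267 FPKM, in control library 3. Neither of these genes reached the level that was tested. *Gpi1*, the next enzyme, had 11.96 to 19.5 FPKM with overlapping groups.

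Phosphofructokinase, the committing step of glycolysis, came from 3 genes of low level. *Pfkm* had 1.20, 2.16 and 2.13 FPKM in controls and 2.80, 2.89 and 2.15 FPKM in the aminophylline group, a change of 0.37 ± 0.22 (SE) with unadjusted p = 0.131. Aminophylline library 3 fell just under control library 2 for this gene, and the other aminophylline libraries lay above all controls. *Pfkp* had 1.20, 1.27 and 1.68 FPKM in controls and 1.40, 1.76 and 1.54 FPKM in the aminophylline group. *Pfkl*, the liver type, had 0.284, 0.174 and 0.702 FPKM in controls and 0.669, 1.14 and 0.954 FPKM in the aminophylline group, and was not tested. As a share of the summed FPKM of the 3 genes, *Pfkp* was 35.2% to 44.6% in controls and 28.8% to 33.2% in the aminophylline group, without overlap.

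In the middle of glycolysis, the triose phosphate enzymes were plainly expressed. *Aldoa*, the aldolase that makes triose phosphates, had 31.4, 45.9 and 45.5 FPKM in controls and 48.9, 52.9 and 50.1 FPKM in the aminophylline group. Every aminophylline library exceeded every control library, yet the change of 0.32 ± 0.19 (SE) did not pass the test (unadjusted p = 0.113) and was 0.14 without control library 1. Its paralog *Aldoc* had at most 0.271 FPKM and was not tested. *Tpi1* interconverts the triose phosphates and lies at chr6:124810586-124814158 in RefSeq's annotation of GRCm38, as for the positions that follow. It had 36.8, 42.9 and 52.5 FPKM in controls and 55.3, 66.1 and 68.8 FPKM in the aminophylline group. Its mean was 44.1 ± 7.89 FPKM in controls and 63.4 ± 7.14 FPKM in the aminophylline group (SD, n = 3 each), and the groups did not overlap. The change was 0.52 ± 0.18 (SE), with an unadjusted limma p of 0.0154 and an adjusted p of 0.681. Without control library 1 it was 0.40, with unadjusted p = 0.0554.

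Several enzymes further down the pathway have transcripts that resemble those of other genes. *Gapdh* had only 36 to 77 reads a library and 0.616 to 2.78 FPKM, and 82.5% of its 50-base stretches also occur in other genes' transcripts, 213 of the 222 such genes being pseudogenes. For *Eno1* the share was 72.2%, for *Pgk1* 68% and for *Pgam1* 41.5%, so their FPKM depend on how reads with several matches were counted. *Pgk1* had 14.2 to 17.6 FPKM, *Pgam1* 0.649 to 1.91 FPKM and *Eno1* 27.5 to 43.0 FPKM, each with overlapping groups and changes of -0.09, 0.29 and 0.15.

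*Pkm* (chr9:59656576-59679372), the pyruvate kinase that ends glycolysis, had 9.26, 11.7 and 18.9 FPKM in controls and 21.9, 18.3 and 24.4 FPKM in the aminophylline group. Its means were 13.3 ± 4.998 and 21.5 ± 3.08 FPKM (SD, n = 3 each). Control library 3 lay above aminophylline library 2, so the groups overlapped. The change was 0.70 ± 0.25 (SE), unadjusted p = 0.0173, limma adjusted p = 0.682. It was 0.49 (unadjusted p = 0.0786) without control library 1 and 0.39 (unadjusted p = 0.0585) after correction for GC content and length. Stretches shared with other genes, 7 of 8 of them pseudogenes, made up 34.4% of its transcript.

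Lactate dehydrogenase, which interconverts pyruvate and lactate, was the most abundant member. *Ldhb*, the heart-type subunit, had 6976, 14272 and 7994 FPKM in controls and 11726, 10498 and 8914 FPKM in the aminophylline group. It ranked first of all 25631 genes in 5 libraries and at rank 2 in control library 1. Control library 2, the shallowest, was the highest and control library 1 the lowest of the 6 libraries. The change was 0.15 ± 0.25 (SE) with unadjusted p = 0.553, and 0.47 with unadjusted p = 0.0166 when control library 2 was left out, while without control library 1 it was -0.05. *Ldha*, the muscle-type subunit, had 0.112 to 0.506 FPKM and at most 91 reads, and at least 99.99% of the summed FPKM of the pair was *Ldhb* in each library. A single pseudogene shares 27% of the 50-base stretches of *Ldhb*.

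The 250 bases before a start of *Ldhb* and of *Ldha* are shown because *Ldhb* was the most abundant member while its paralog *Ldha* stayed under 1 FPKM. Both are from RefSeq on GRCm38.p6, *Ldhb* at chr6:142507958-142508207 on the minus strand and *Ldha* at chr7:46845554-46845803 on the plus strand. The *Ldha* stretch is the more upstream of its promoters listed there, and lies inside the gene's annotated span of chr7:46842274-46855627. Capitals mark ACGTG (the core bound by hypoxia-inducible factors), CACGTG (the E-box, which holds ACGTG on both strands), GGGCGG (the GC box) and TGACNNNGC (the core of the antioxidant response element), each searched on both strands.
Ldhb: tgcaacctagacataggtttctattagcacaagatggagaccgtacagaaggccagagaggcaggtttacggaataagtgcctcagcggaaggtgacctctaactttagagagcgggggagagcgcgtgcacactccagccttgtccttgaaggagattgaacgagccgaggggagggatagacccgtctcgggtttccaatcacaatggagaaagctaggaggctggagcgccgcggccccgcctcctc
Ldha: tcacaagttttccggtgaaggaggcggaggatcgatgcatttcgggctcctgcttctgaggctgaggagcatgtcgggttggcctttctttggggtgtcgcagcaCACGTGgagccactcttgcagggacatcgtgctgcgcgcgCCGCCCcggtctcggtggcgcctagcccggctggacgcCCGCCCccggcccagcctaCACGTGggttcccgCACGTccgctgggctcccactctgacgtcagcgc
The *Ldha* stretch holds 2 E-boxes, 1 further ACGTG and 2 GC boxes, and the *Ldhb* stretch holds none of the motifs. A match is a description of the letters and says nothing of binding.

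In the pentose phosphate pathway, 3 members beyond the entry enzyme were higher and *Prps1* was lower at an unadjusted p under 0.05. The entry enzyme did not pass. Over all tested genes, 4.41% were higher and 2.84% lower at this threshold. *G6pdx*, which sends glucose phosphate into the pathway and makes its first NADPH, was the most abundant member of the step. It had 173, 175 and 252 FPKM in controls and 155.0, 189.5 and 171 FPKM in the aminophylline group, with a change of -0.20 ± 0.18 (SE), unadjusted p = 0.304, and a 95% interval of -0.60 to 0.20. Control library 3 was far above the other 5. After correction for GC content and length the change was -0.32 (unadjusted p = 0.0400). *Pgls*, the lactonase that follows, had 7.36, 14.5 and 7.73 FPKM in controls and 14.6, 12.6 and 10.1 FPKM in the aminophylline group, with overlapping groups (0.35, unadjusted p = 0.211).

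*Pgd* (chr4:149149991-149166705), phosphogluconate dehydrogenase, makes the pathway's other NADPH. It had 1.08, 1.24 and 2.41 FPKM in controls and 2.18, 3.50 and 4.06 FPKM in the aminophylline group, from 40 to 285 reads a library. Only control library 3 and aminophylline library 1 were in reversed order. The means were 1.58 ± 0.730 and 3.25 ± 0.968 FPKM (SD, n = 3 each), and the change was the largest increase among the 37 tested members, 0.73 ± 0.26 (SE), unadjusted p = 0.0179, limma adjusted p = 0.682. Without control library 1 it was 0.59 with unadjusted p = 0.0772.

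*Rpia* (chr6:70765720-70792175), the isomerase that yields ribose phosphate, had 1.33, 1.04 and 1.6 FPKM in controls and 1.5, 3.14 and 4.06 FPKM in the aminophylline group. Aminophylline library 1 stood among the controls and the other two well above them. Its change was 0.70 ± 0.27 (SE), unadjusted p = 0.0249, limma adjusted p = 0.682, and stayed at 0.70 with unadjusted p = 0.0591 without control library 1. The epimerase *Rpe* of the same branch had 19.3 to 31.4 FPKM and a change of -0.10.

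The transketolase *Tkt* and the transaldolase *Taldo1* link the pathway back to glycolysis. *Tkt* had 1.07, 0.966 and 1.47 FPKM in controls and 1.57, 2.68 and 1.56 FPKM in the aminophylline group, without overlap but short of the threshold (0.42 ± 0.22 SE, unadjusted p = 0.0774). *Taldo1* (chr7:141392160-141402976) had 42.7, 45.3 and 55.2 FPKM in controls and 63.8, 69.4 and 61.7 FPKM in the aminophylline group. All aminophylline libraries exceeded all controls, with means of 47.7 ± 6.62 and 65.0 ± 3.96 FPKM (SD, n = 3 each). Its change was 0.44 ± 0.17 (SE), unadjusted p = 0.0216, limma adjusted p = 0.682, and 0.37 with unadjusted p = 0.0595 without control library 1. It also missed the threshold with a common sum (unadjusted p = 0.0513), after median centring (0.0682), with voom (0.0969) and after correction for GC content and length (0.30, unadjusted p = 0.0694).

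*Prps1* (chrX:140456603-140476140) moved the other way. It encodes the synthetase that activates ribose phosphate for nucleotide synthesis. It had 3.94, 2.80 and 3.47 FPKM in controls and 1.51, 1.0 and 1.85 FPKM in the aminophylline group, from 49 to 262 reads. Every aminophylline library was lower than every control library, with means of 3.40 ± 0.575 and 1.45 ± 0.429 FPKM (SD, n = 3 each). The change of -0.85 ± 0.22 (SE) was the largest in size among the 37 tested members, with unadjusted p = 0.00272 and a limma adjusted p of 0.651. It held an unadjusted p under 0.05 in 17 of the 17 alternatives that included *Prps1*, with changes from -1.36 to -0.71. The adjusted p went from 0.0560, under the replicate block, to 0.999. The alternative with a mean of at least 5 FPKM left the gene out, as its mean was 2.43 FPKM. Without control library 1 the change was -0.76 (unadjusted p = 0.0121). Its paralog *Prps2* had at most 0.0952 FPKM, and *Prps1l3* shares 10.1% of its 50-base stretches.

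The stretches before *Pgd* and *Prps1* are shown as those of the members with the largest changes in either direction, with the same capitals. *Pgd*, at its upstream start, is on the minus strand at chr4:149166706-149166955 and *Prps1* on the plus strand at chrX:140456353-140456602.
Pgd: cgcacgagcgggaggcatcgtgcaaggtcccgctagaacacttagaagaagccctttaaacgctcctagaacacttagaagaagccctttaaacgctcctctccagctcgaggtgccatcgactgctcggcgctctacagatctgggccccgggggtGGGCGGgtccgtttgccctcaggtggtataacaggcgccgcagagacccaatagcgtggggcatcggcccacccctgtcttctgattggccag
Prps1: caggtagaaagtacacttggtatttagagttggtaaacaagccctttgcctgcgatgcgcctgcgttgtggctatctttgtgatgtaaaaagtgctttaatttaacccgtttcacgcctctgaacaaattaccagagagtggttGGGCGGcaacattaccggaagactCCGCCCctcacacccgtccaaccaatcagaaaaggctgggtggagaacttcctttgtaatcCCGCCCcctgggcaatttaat
Both hold GC boxes, 1 in *Pgd* and 3 in *Prps1*, and neither holds ACGTG or TGACNNNGC. Over the 65 RefSeq promoters of the 44 members matched by symbol, 7.69% held TGACNNNGC against 10.2% of all 32851 promoters, 30.8% held ACGTG against 16.6%, 9.23% held CACGTG against 6.02% and 60% held GGGCGG against 32.7%. TATAAA (the TATA box) was in 0% against 12.4%, and TAATTG, an element bound by the oocyte factor NOBOX, in 6.15% against 7.17%. The set of all promoters includes those of non-coding genes. Neighbouring starts of *Ogdh* alone supply 6 of the 20 member promoters with ACGTG and 3 of the 6 with CACGTG. Among the 9 members with an unadjusted p under 0.05, *Pkm* and *Pdk3* had ACGTG and none had TGACNNNGC.

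**Figure D3:**
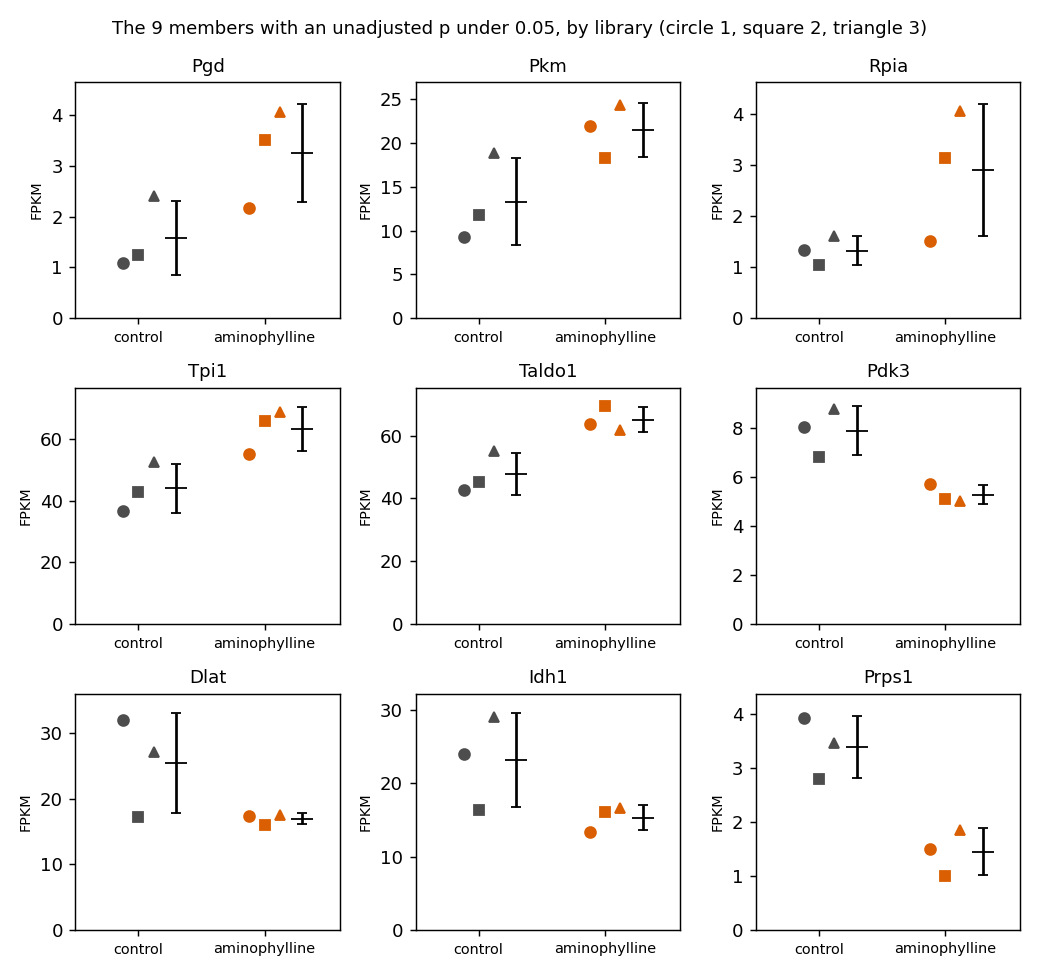
FPKM (y axis, from 0) in each library of the 9 members with an unadjusted p under 0.05, control in grey and aminophylline in orange, with the mean and SD of each group of 3 as a bar at its side. *Tpi1* and *Taldo1* separate upwards and *Prps1* and *Pdk3* downwards, whereas the groups of *Pgd*, *Pkm*, *Rpia*, *Dlat* and *Idh1* overlap.

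At the entry of pyruvate, no member was higher at an unadjusted p under 0.05 and 2 of 8 were lower. Over all tested genes, 4.41% were higher and 2.84% lower. The carrier subunits *Mpc1* and *Mpc2* did not pass the test. *Mpc2*, the most abundant member of this step, had 110.1, 111 and 82.8 FPKM in controls and 115, 80.4 and 116 FPKM in the aminophylline group (0.03, 95% interval -0.40 to 0.45). *Mpc1* had 31.5, 25.3 and 21.7 FPKM in controls and 26.6, 22.6 and 22.5 FPKM in the aminophylline group (-0.11 ± 0.19 SE). Within each group the libraries varied more than the groups did.

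Subunits of the pyruvate dehydrogenase complex gave values in both directions. *Pdha1* and *Pdhb*, its decarboxylase subunits, had 7.58 to 12.9 and 61.3 to 74.3 FPKM and changes of 0.21 and 0.14 that did not pass the test. *Dlat* (chr9:50634633-50659780), the acetyltransferase core, had 32.1, 17.2 and 27.2 FPKM in controls and 17.5, 16.0 and 17.5 FPKM in the aminophylline group. The aminophylline libraries were close together, and control library 2 lay among them. Its change was -0.52 ± 0.23 (SE), unadjusted p = 0.0460, limma adjusted p = 0.684. It was -0.33 (unadjusted p = 0.182) without control library 1 and -0.77 (unadjusted p = 0.00161) without control library 2. *Dld*, the dehydrogenase shared with other complexes, had 33.6 to 78.1 FPKM and a change of -0.25.

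Among the kinases that inhibit the complex, *Pdk3* (chrX:93764616-93832150) was lower and *Pdk1* did not pass the test. *Pdk3* had 8.04, 6.82 and 8.79 FPKM in controls and 5.71, 5.09 and 5.02 FPKM in the aminophylline group, without overlap. Its means were 7.88 ± 0.993 and 5.27 ± 0.382 FPKM (SD, n = 3 each), and its change was -0.50 ± 0.21 (SE), unadjusted p = 0.0339, limma adjusted p = 0.682, or -0.48 (unadjusted p = 0.0634) without control library 1. *Pdk1* had 1.56, 1.32 and 2.30 FPKM in controls and 1.58, 1.48 and 1.97 FPKM in the aminophylline group (-0.01, 95% interval -0.48 to 0.45). *Pdk1* thus made up 16.2% to 20.7% of the pair's FPKM in controls and 21.7% to 28.2% in the aminophylline group. *Pcx*, pyruvate carboxylase, had 0.269, 0.132 and 0.424 FPKM in controls and 0.609, 0.478 and 0.501 FPKM in the aminophylline group. It was higher in each aminophylline library but below the level that was tested.

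In the TCA cycle 1 of 9 tested members passed the unadjusted threshold, and it was lower, as were 2.84% of all tested genes. *Idh1* (chr1:65158616-65186479), the cytosolic isocitrate dehydrogenase that makes NADPH outside the cycle proper, had 24.0, 16.4 and 29.0 FPKM in controls and 13.3, 16.0 and 16.6 FPKM in the aminophylline group. Only control library 2 fell within the range of the aminophylline group. The change was -0.53 ± 0.23 (SE), unadjusted p = 0.0378, limma adjusted p = 0.682, and -0.49 (unadjusted p = 0.0961) without control library 1. Its mitochondrial counterpart *Idh2* had 0.326, 0.153 and 0.136 FPKM in controls and 0.0701, 0.124 and 0.129 FPKM in the aminophylline group, from 11 to 61 reads, and was not tested.

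Other TCA cycle members gave smaller differences. *Mdh2*, the mitochondrial malate dehydrogenase and the most abundant of the step, had 217, 277 and 220.3 FPKM in controls and 239.8, 234 and 211 FPKM in the aminophylline group (-0.05 ± 0.16 SE). *Mdh1*, its cytosolic form, had 135, 114 and 127 FPKM in controls and 142, 148 and 147 FPKM in the aminophylline group, without overlap but with unadjusted p = 0.162. *Fh1* (fumarase) had 58.4, 52.8 and 57.8 FPKM in controls and 60.1, 64.9 and 66.1 FPKM in the aminophylline group. *Suclg1*, the common succinyl-CoA ligase subunit, had 33.5, 30.3 and 30.2 FPKM in controls and 34.8, 37.9 and 40.6 FPKM in the aminophylline group. Both separated without passing the test. The changes of *Mdh1*, *Fh1* and *Suclg1* were 0.22, 0.17 and 0.26, against 0.10 for the median of all genes. *Idh3a* (41.3 to 68.3 FPKM over the 6 libraries) and *Sucla2* (82.3 to 125 FPKM) had changes of -0.36 and -0.32 with overlapping groups. *Cs* (31.9 to 55.7 FPKM) and *Ogdh* (1.58 to 4.25 FPKM) had changes of 0.13 and 0.33.

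Set side by side, the steps gave the following values, with no test of a difference between them. The median change of the tested members was 0.15 in glycolysis, 0.39 in the pentose phosphate pathway, -0.06 in pyruvate entry and 0.13 in the TCA cycle, where the median over all genes was 0.10. The medians of single libraries varied within groups by a pooled SD of 0.228, 0.180, 0.159 and 0.208 for the 4 steps. Higher and lower members at an unadjusted limma p under 0.05 numbered 2 and 0 of 12, 3 and 1 of 8, 0 and 2 of 8, and 0 and 1 of 9. Over all tested genes the shares were 4.41% higher and 2.84% lower, and the steps hold too few members for their counts to be told apart. The signs of these 4 medians were kept in the 18 alternatives. The median of the pentose phosphate pathway was 0.13 when only genes with a mean of at least 5 FPKM were kept or after correction for GC content and length. That filter removed *Pgd*, *Rpia*, *Tkt* and *Prps1*, with means of 1.55 to 2.43 FPKM, so its median is over fewer genes. In summed FPKM the glycolytic members other than *Ldhb* had 146, 195 and 217 in controls and 214, 238 and 228 in the aminophylline group. Those of the pentose phosphate pathway had 254 to 355 in controls and 262 to 304 in the aminophylline group, of pyruvate entry 266 to 303 and 254 to 296, and of the TCA cycle 657 to 713 and 657 to 687. Only control library 3 kept the glycolytic sums of the groups from separating.

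Without overlap between groups, 7 tested members were higher (*Aldoa*, *Tpi1*, *Tkt*, *Taldo1*, *Suclg1*, *Fh1* and *Mdh1*) and 2 lower (*Prps1* and *Pdk3*), where 7.51% of all tested genes were higher and 4.96% lower in this way. With a common sum the counts were 1 higher and 2 lower (5.61% and 4.67% of all genes), after median centring 7 and 7 (4.97% and 8.88%), and after correction for GC content and length 3 and 7 (5.78% and 8.72%). With 5 libraries, groups separate more often. Without control library 3 the counts were 15 and 2, where 23.3% and 7.65% of all genes separated, and without control library 2 they were 10 and 6, where 17.2% and 14.6% did. Control library 1 was the lowest of the 6 libraries for 18 of the 37 tested members and control library 3 the highest for 11. The same was not counted over all tested genes.

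**Figure D4:**
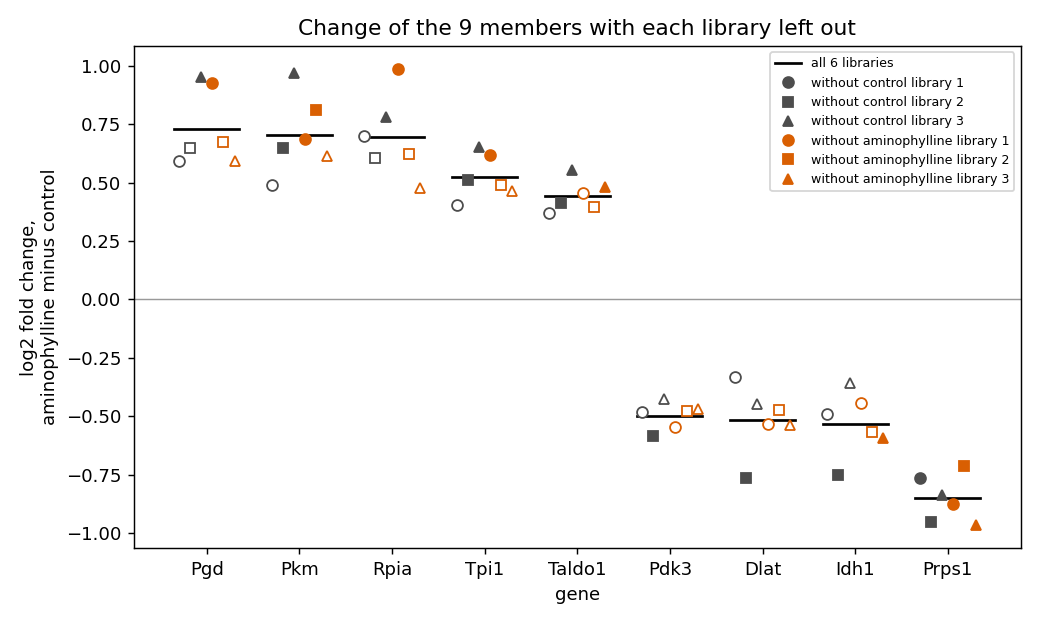
Log2 fold change (y axis) of the 9 members with all 6 libraries (line) and with each library left out (symbols, filled where the unadjusted p was under 0.05). Every symbol keeps the sign of its gene's line, and *Prps1* is filled in all 6 cases, whereas without control library 1 it is the only filled gene.

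The wider pathway list was counted in the same way. Of 66 further genes listed, 60 were in the table and 36 were tested. Limma gave 0 of them an unadjusted p under 0.05, where 4.41% of all tested genes were higher and 2.84% lower. Their median change was 0.06. *Bpgm*, which makes the bisphosphoglycerate that bypasses a step of glycolysis, was abundant at 1027 to 1441 FPKM. The gluconeogenic bisphosphatases *Fbp1* and *Fbp2* had 89.3 to 104 and 26.5 to 31.4 FPKM. *Fbp2* and *Got1* were higher without overlap and *Pfkfb1* and *Bsg* lower without overlap, none of them past the test. Each pair is 2 of the 36 tested, where 7.51% of all tested genes separated upwards and 4.96% downwards. *Pdhx*, the binding protein of the pyruvate dehydrogenase complex, had 129 to 176 FPKM and a change of 0.03.

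Shared sequence limits several values. Of the 46 members, 18 share over 5% of their 50-base stretches with other genes' transcripts. Among the 9 with an unadjusted limma p under 0.05, *Pgd*, *Rpia*, *Dlat*, *Pdk3* and *Idh1* share 0%, *Tpi1* 7.51%, *Prps1* 10.1%, *Taldo1* 10.9% and *Pkm* 34.4%. For *Pkm*, *Ldha* and *Pdk3* the transcript length behind the deposited FPKM was 7687, 5342 and 11504 bases, against 2432, 1815 and 2115 in GENCODE. Levels set between genes, among them the shares of *Pdk1* and *Pdk3*, thus depend on the authors' annotation.

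**Figure D5:**
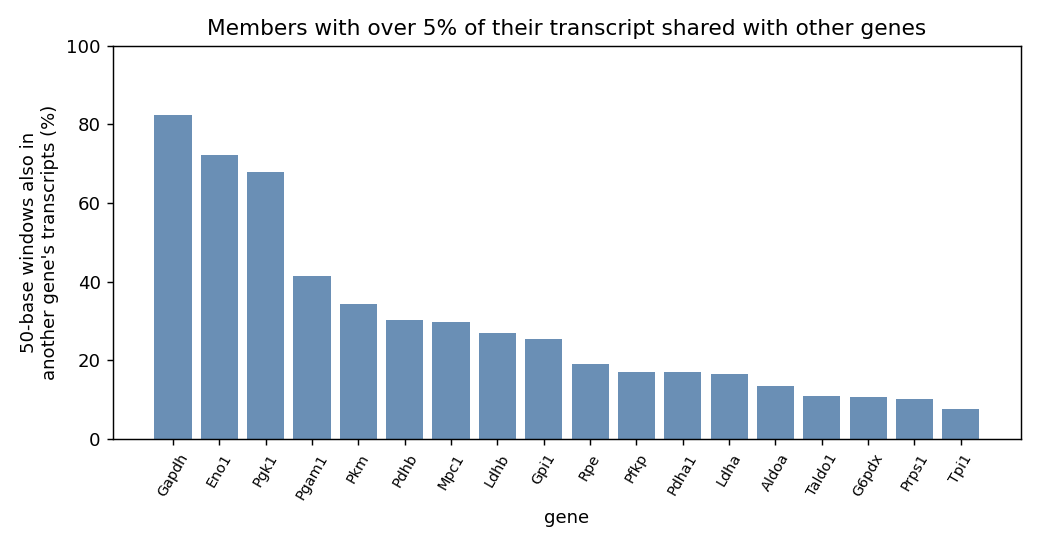
Percentage of 50-base stretches of a member's transcript (y axis, from 0) that also occur in transcripts of another gene in GENCODE, for the 18 members above 5%. *Gapdh*, *Eno1* and *Pgk1* stand at 82.5%, 72.2% and 68%, and *Tpi1* closes the row at 7.51%.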

How the data were processed

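Oocyte RNA of 6 mouse libraries was sequenced after preparation with the VAHTS Universal V6 kit. The authors deposited FPKM values per gene, that is, fragments divided by transcript length and library size, for GRCm38 (mm10) per the submitters' processing notes. The aligner, counter and annotation are not given in the sources used here. Groups and replicate numbers came from the labels, and 0 value columns were left unmapped.

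Whole reads were recovered from ratios between libraries (100% of 120146 values whole within a relative tolerance of 1e-06), which gave totals of 14112341 to 33641283 reads. A count of 0 was taken to allow 3 reads, for counting error only. Genes with at least 1 FPKM in at least 3 of 6 libraries were tested two-sided with limma 3.58.1 in R 4.3.3 on log2(FPKM + 1) with a trend. Adjusted p-values are Benjamini-Hochberg values over the 10340 genes tested. An exact permutation test of 3 against 3 libraries cannot go below p = 0.1 and was not used. The study's methods name an unpaired t test, for which the unmoderated linear model stood as an alternative. Other alternatives were a pseudocount of 0.1, no filter, a mean of at least 5 FPKM, TPM rescaling, centring on the median, quantile normalization, library weights, a replicate block, voom with TMM scaling on recovered reads, leaving out each library and, chosen after seeing the data, a correction for GC content and length with and without the block (89.4% of genes had both).

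The labels number the libraries 1 to 3 in both groups. Deviations from group means correlated at 0.138, 0.14 and 0.552 for same-numbered libraries, so a fit with the number as a block was set beside the unpaired one, from which the printed p-values come. No source says that same-numbered libraries share mice or a preparation.

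The members, the wider pathway list and the marker lists (oocyte, granulosa and cumulus, macrophage, erythrocyte, stroma and theca) were chosen with earlier results of these data known. Values per library are given for members with an unadjusted p under 0.05 or without overlap between groups, for the most abundant of each step and for isoform pairs above the filter, with the rest given by range. Shared sequence was counted over 50-base windows of GENCODE transcripts. Gene positions came from RefSeq, as did the promoters (GRCm38.p6). The code was tested on simulated data. Figures were drawn with matplotlib 3.10.9.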

Additional observations from a re-analysis of the deposited data

How the results depend on the processing

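With all 6 libraries, 5 members were higher and 4 lower at an unadjusted p under 0.05. With the replicate block the 9 members were the same and the counts stayed at 5 and 4, and the block changed no other call among the members. The higher count was 3 with a mean of at least 5 FPKM, 9 with library weights and 3 after correction for GC content and length. The lower count was 2 without a filter, with a common sum and with the unmoderated model. Over all genes, 1398 of 10340 were higher with library weights, against 456 without them. With a mean of at least 5 FPKM 294 of 5885 were higher, and after the GC content and length correction 287 of 9241. Lower genes numbered 487 of 25631 without a filter, and 292 with a common sum and 270 with the unmoderated model, both of 10340. Leaving out 1 library gave 0 to 7 higher and 1 to 7 lower, while all genes ranged over 191 to 1171 and 125 to 744. Members without overlap, 7 higher and 2 lower, became 1 higher with a common sum and 3 higher after the GC content and length correction, with or without the replicate block. The lower ones became 1 with a mean of at least 5 FPKM, 4 after quantile normalization, and 7 after median centring, with voom and after the GC content and length correction, with or without the replicate block. In the same order, 6.47%, 8.54%, 8.88%, 8.09% and 8.72% of all genes were lower without overlap, against 4.96% with the values as deposited. Leaving out 1 library gave 7 to 15 and 2 to 6, where 10.7% to 23.3% and 7.03% to 14.6% of all genes separated. The pentose phosphate median of 0.39 was 0.13 with a mean of at least 5 FPKM, which kept fewer of its members. It was also 0.13 after the GC content and length correction, with or without the replicate block. The causes were not tested. No member passed an adjusted p of 0.05 in any of the 18 alternatives, the lowest values being 0.056 to 0.999 by alternative. Of 159 values of the 9 members under alternatives, 113 kept an unadjusted p under 0.05, 46 did not, and none changed sign. At 3 libraries a group the largest member change, -0.85, did not pass the adjusted threshold, and 9 members were too low to test.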
